A study of Mus musculus with 4 samples.

Results

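Replication-dependent histone genes are described here: the genes whose names begin with Hist1h, Hist2h, Hist3h or Hist4h in the count table, leaving out 1 name that holds -ps. The rule found 69 of 53801 genes. By histone type these were 6 genes for the linker histone H1, 20 for H2A, 18 for H2B, 12 for H3 and 13 for H4. RNA was sequenced from osteoclast precursor cells, myeloid cells that can mature into bone-resorbing osteoclasts, of 2 wild-type C57BL/6 mice. Their preparations, numbered in the sample titles (precursor cells 1 and precursor cells 2, here cells 1 and cells 2), received DKK1, a secreted Wnt antagonist, at 200 ng/ml or PBS, the buffer control, for 3 h. Each treatment thus had 2 libraries, 1 from each preparation of cells, and they are named PBS 1, DKK1 1, PBS 2 and DKK1 2. The labels name 2 mice and number the preparations 1 and 2 but do not state that a number marks a mouse, and p-values rest on these 2 preparations alone. The sources used here state neither the age of the mice nor how the precursors were isolated.

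Histones package DNA: H2A, H2B, H3 and H4 form the core of the nucleosome, and H1 binds the linker between nucleosomes. Replication-dependent genes supply them in bulk during S phase, and their messenger RNAs classically end in a conserved stem-loop, bound by the protein Slbp, in place of a poly(A) tail. Some of these genes are also known to give polyadenylated transcripts, which are found in cells that have left the cycle. The labels name total RNA, and the sources used here do not give poly(A) selection, ribosomal depletion or strand.

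The stem-loop is shown for 5 of the 9 members with the most counts and for Hist2h3c2, the H3 gene with the most counts, because it is the feature that defines the class at the 3′ end. The sites were read from the GENCODE M21 transcripts (GRCm38), with the 16 bases matching the motif in capitals.

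Hist1h1c: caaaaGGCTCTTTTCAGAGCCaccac

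Hist3h2a: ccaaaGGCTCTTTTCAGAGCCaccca

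Hist2h2aa2: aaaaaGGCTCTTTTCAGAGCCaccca

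Hist1h2bg: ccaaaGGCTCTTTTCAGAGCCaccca

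Hist2h3c2: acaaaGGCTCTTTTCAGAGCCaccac

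Hist1h4i: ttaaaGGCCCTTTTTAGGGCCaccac

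The letters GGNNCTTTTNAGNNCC were found, on the transcript strand, in annotated transcripts of 44 of the 69 members and in 0.0875% of all 141767 transcripts searched. The form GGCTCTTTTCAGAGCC was the most frequent and occurred in 26 members, and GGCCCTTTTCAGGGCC occurred in 7 members, all of them H4 genes. In 22 members the annotated transcript ended within 100 bases after the stem-loop, and in another 22 it ran more than 100 bases past it. The members with the longer models held 56.4% of all member counts and those with the short models 15.2%. The 25 members without these letters in their annotated transcripts held 28.5%. These shares are of counts not scaled to length. Hist1h2bc, Hist2h2be and Hist1h2al, among the 9 members with the most counts, are without the letters. A search of annotated transcripts cannot show whether the RNA itself carries them. Among the longer models Hist1h1c and Hist3h2a had the most counts, 4549 and 3454 summed over the 4 libraries. Hist3h2a, for example, is annotated 1643 bases beyond its stem-loop and Hist1h1c 840 bases beyond it, each with the polyadenylation hexamer AATAAA in the last 46 bases.

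Upstream sequence is shown for 1 member each of H1, H2A, H2B and H4 that was abundant, to let the promoters of the types be compared. The windows are the 250 bases before the start site in RefSeq (GRCm38.p6), 5′ to 3′ on the strand of the gene, with 3 motifs or their reverse complements in capitals: the CCAAT box, the TATA box read as TATAAA, and the octamer ATTTGCAT. They lie at chr13:23738557-23738806 on the plus strand, chr11:58954435-58954684 on the plus strand, chr13:23571150-23571399 on the plus strand and chr13:22041363-22041612 on the minus strand, in the order printed.

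Hist1h1c: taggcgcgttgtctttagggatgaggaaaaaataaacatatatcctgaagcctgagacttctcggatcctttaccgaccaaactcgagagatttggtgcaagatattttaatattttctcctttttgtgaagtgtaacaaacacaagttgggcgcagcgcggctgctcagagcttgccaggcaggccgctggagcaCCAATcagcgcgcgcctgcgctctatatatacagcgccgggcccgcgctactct

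Hist3h2a: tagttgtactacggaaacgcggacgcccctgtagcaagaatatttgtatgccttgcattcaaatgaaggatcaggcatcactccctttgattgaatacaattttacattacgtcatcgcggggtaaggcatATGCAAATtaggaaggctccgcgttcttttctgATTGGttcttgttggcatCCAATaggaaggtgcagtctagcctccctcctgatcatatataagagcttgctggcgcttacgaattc

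Hist1h2bg: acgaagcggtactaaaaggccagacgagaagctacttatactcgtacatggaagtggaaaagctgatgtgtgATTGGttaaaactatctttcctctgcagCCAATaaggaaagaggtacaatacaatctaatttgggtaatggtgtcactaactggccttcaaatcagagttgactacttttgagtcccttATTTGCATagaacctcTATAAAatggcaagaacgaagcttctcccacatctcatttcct

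Hist1h4i: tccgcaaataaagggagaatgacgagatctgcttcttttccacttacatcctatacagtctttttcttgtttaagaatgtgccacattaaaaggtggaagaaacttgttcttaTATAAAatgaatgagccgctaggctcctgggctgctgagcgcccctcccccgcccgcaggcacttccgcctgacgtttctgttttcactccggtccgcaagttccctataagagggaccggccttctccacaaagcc

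A promoter window of 300 bases (250 before and 50 after the start) was on file for 62 members, and both strands were searched at every position. CCAAT, the box bound by NF-Y, was found in 85.5% of these members and in 37.4% of all 32851 promoters of the same length. By type it was found in all 6 H1, 18 H2A, 16 H2B and 10 H3 members searched and in 3 of the 12 H4 members. TATAAA was found in 56.5% of members and 13.6% of all promoters. The octamer ATTTGCAT, bound by Oct-1 (Pou2f1), was found in 7 of 18 H2A and 7 of 16 H2B members, in 0 members of the other types, and in 1.74% of all promoters.

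The libraries held 41163663 to 53537927 counts in all, of which the 69 members took little. Their summed counts were 3833 with PBS and 3896 with DKK1 in cells 1, and 5040 with PBS and 5312 with DKK1 in cells 2. In CPM, the count scaled to the total count of the library, these were 72.0, 72.8, 122 and 115. The summed level was thus alike within each pair and higher in both libraries of cells 2. The sums are of bulk RNA, in which fewer cells of a type and less RNA per cell cannot be told apart.

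Members differed widely in level. Levels between genes are compared as the mean CPM per kb of exon over the 4 libraries, with the SD over these libraries. The median of the 69 members was 0.323 CPM per kb. For members annotated more than 100 bases past the stem-loop it was 0.229 CPM per kb, though they held the largest share of counts. For those ending within 100 bases after it the median was 0.452 CPM per kb. Members without the stem-loop letters had a median of 0.426 CPM per kb. This measure divides by the annotated length, which also parts the longer from the shorter models, so their order is partly set by it. In counts summed over the 4 libraries the medians were 73 for the longer models, 45.5 for the shorter and 38 for those without the letters. Hist1h1c, a linker histone gene, had 15.3 ± 2.95 (SD, n = 4), Hist1h2bc (H2B) 14.1 ± 6.92, Hist2h2aa2 (H2A) 9.44 ± 7.07 and Hist3h2a (H2A) 8.85 ± 6.43 CPM per kb. The H2A models Hist1h2al and Hist2h2aa1 followed at 8.44 ± 9.54 and 8.39 ± 7.42 CPM per kb, then Hist1h4i at 4.39 ± 0.786 and Hist1h2bg at 3.46 ± 1.04 CPM per kb. The first 6 of these did not differ from their neighbours in the order beyond the spread over libraries, which for the H2A genes and Hist1h2bc lay mainly between the 2 preparations of cells.

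**Figure D1:**
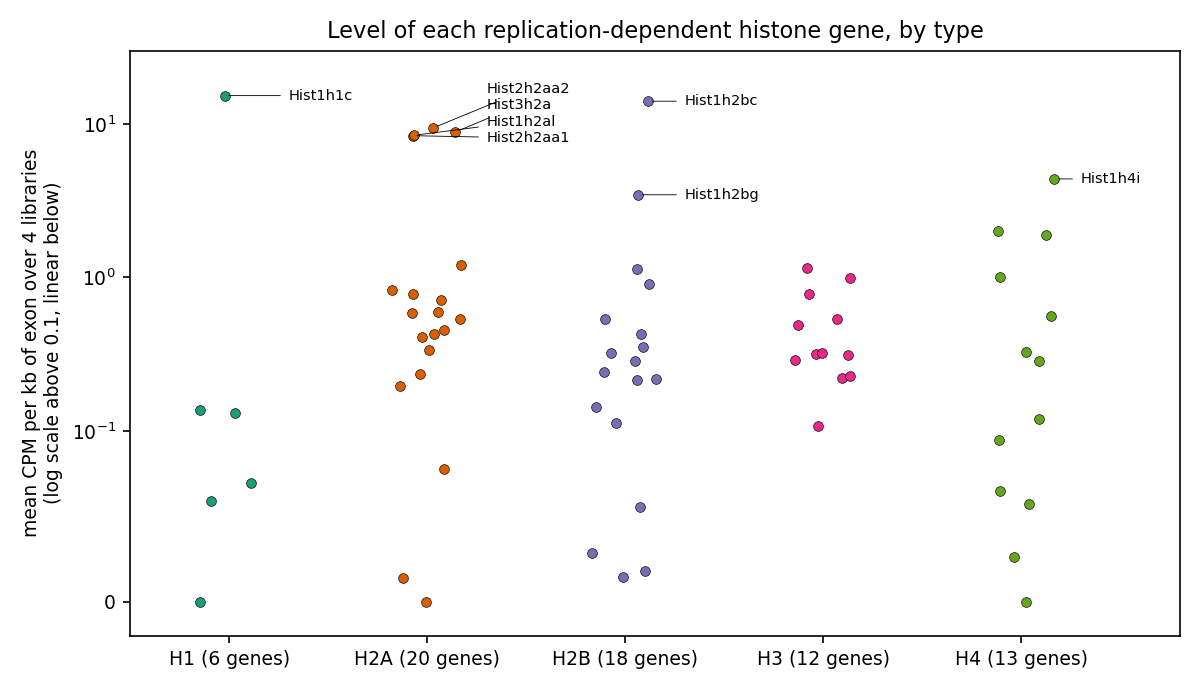
Mean CPM per kb of exon over the 4 libraries for each of the 69 members (points), by histone type on the x axis. The y axis is logarithmic above 0.1 and linear below, and points are spread sideways for legibility. Each type except H3 has members above 3 CPM per kb, and Hist1h1c lies highest at 15.3.

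The 9 members with a mean of at least 2 CPM held 83.0% of the members' counts. They were Hist1h1c, Hist3h2a, Hist1h2bc, Hist2h2aa2, Hist2h2aa1, Hist1h4i, Hist1h2al, Hist2h2be and Hist1h2bg. No H3 gene was among them: the leading H3 gene, Hist2h3c2, had 59 and 52 counts with PBS and DKK1 in cells 1 and 66 and 46 in cells 2. At the other end, 3 members had no count in any library (Hist1h1t, the testis H1 gene, Hist1h2aa and Hist1h4f), where 3 counts of the total allow up to 0.0560 to 0.0729 CPM depending on the library. Another 6 members were near 0, with fewer than 10 counts summed over the 4 libraries: Hist1h2ba, Hist1h2bb, Hist1h2bl, Hist1h2bm, Hist1h4a and Hist2h2ab. The other 51 members had between 11 and 223 counts summed over the 4 libraries.

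Counts of single members need care, because many are near copies. Of the 69 members, 53 had at least 1 other member matching at 95% or more of bases over at least 100 bases and 50% of the shorter transcript, and exons of 26 members overlapped those of another gene model. In 4 pairs the transcripts were identical over 452 bases (Hist1h2ao and Hist1h2ap), 1254 bases (Hist1h2bq and Hist1h2br), 528 bases (Hist2h2aa1 and Hist2h2aa2) or 666 bases (Hist2h3c1 and Hist2h3c2). Reads from such stretches cannot be assigned to 1 of the copies by their sequence, so the values of these members are uncertain.

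The treatment comparison asked whether 3 h of DKK1 changed these genes. Of the 69 members, 43 passed the filter on low counts, and 0 of the 43 were called in either direction by edgeR's quasi-likelihood test at an adjusted p under 0.05. Over all 17462 genes tested, 9 (0.0515%) were called, 0.0401% higher and 0.0115% lower, so a count of 0 of 43 is near the background. At an unadjusted p under 0.05 the test gave 1 member, beside 4.47% of all genes. DESeq2 and limma-voom also called 0 members, and each gave 0 at an unadjusted p under 0.05. The median log2 change of the tested members was 0.02, beside -0.00 for all genes, with 22 members above 0 and 21 below it. The direction was the same in both pairs for 24 of the 43, a share close to the 51.7% of all genes tested.

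Within H1, Hist1h1c had 1061 counts with PBS and 1085 with DKK1 in cells 1, and 1212 with PBS and 1191 with DKK1 in cells 2. The treatments overlapped, and the log2 change with DKK1 was -0.09 (95% interval -0.36 to 0.19, edgeR adjusted p = 0.970). Hist1h1d was lower with DKK1 in both pairs, at 29 and 12 counts in cells 1 and 28 and 14 in cells 2, with a log2 change of -1.21 ± 0.69 (SE) that was not called (edgeR adjusted p = 0.959). Hist1h1e was tested as well and lay between 5 and 22 counts. Hist1h1a and Hist1h1b, with 11 and 21 counts in all, did not pass the filter.

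Within H2A, Hist3h2a had 370 and 383 counts with PBS and DKK1 in cells 1 and 1252 and 1449 in cells 2. Its log2 change with DKK1 was 0.04 (95% interval -0.25 to 0.33, edgeR adjusted p = 0.988), the narrowest interval among the H2A genes. Hist2h2aa2 had 90 and 98 counts in cells 1 and 351 and 363 in cells 2, a log2 change of -0.06 ± 0.21 (SE). Hist1h2ab, a low member, had 39 and 19 counts in cells 1 and 10 and 1 in cells 2, lower with DKK1 in both pairs and not called (log2 -1.32, edgeR adjusted p = 0.959). Of the 20 H2A members 15 were tested, 10 with a positive log2 change, and their median was 0.37.

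Within H2B, Hist1h2bc had 485 and 525 counts with PBS and DKK1 in cells 1 and 1020 and 985 in cells 2. The pairs went opposite ways, and the log2 change was -0.08 (95% interval -0.42 to 0.26, edgeR adjusted p = 0.978). Hist2h2be, the second by CPM among H2B genes, had 166, 147, 123 and 138 counts across PBS 1, DKK1 1, PBS 2 and DKK1 2, and its levels overlapped between treatments. Hist1h2bg had 83, 91, 122 and 107 counts in the same order, again with treatments that overlapped. Of the 18 H2B members 9 were tested, and their median log2 change was -0.08.

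Among the H3 genes, Hist2h3c1 had 20 counts with PBS and 86 with DKK1 in cells 1 but 9 and 6 in cells 2, so the higher value was in a single library. Its log2 change of 1.61 ± 0.69 (SE) was not called (edgeR adjusted p = 0.959). Summed with its copy Hist2h3c2, the counts were 79, 138, 75 and 52 in PBS 1, DKK1 1, PBS 2 and DKK1 2, with a log2 change of 0.21 (edgeR adjusted p = 0.984). Hist2h3c1 shares exon bases on the same strand with the model Gm20634, which had 49 counts in PBS 1 and 0 in DKK1 1. Gm20634 also overlaps the H2A gene Hist2h2aa1, which had 134 and 0 counts in the same libraries. Whether counts moved among these models was not tested. Of the 12 H3 members 9 were tested, with a median log2 change of -0.30.

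Among the H4 genes, Hist1h4i had 203 and 166 counts with PBS and DKK1 in cells 1 and 101 and 156 in cells 2. The pairs again went opposite ways, and the log2 change was 0.02 (95% interval -0.69 to 0.73, edgeR adjusted p = 0.998). Hist4h4, which lies outside the large clusters, had the smallest p of all members: 13 counts with PBS and 0 with DKK1 in cells 1, and 17 and 4 in cells 2. Its treatments did not overlap, but the change was not called after adjustment over all genes (log2 -2.94 ± 1.20 SE, unadjusted p = 0.0439, edgeR adjusted p = 0.959). Hist1h4k was higher with DKK1 in both pairs, at 21 and 41 counts in cells 1 and 12 and 42 in cells 2, and was not called either (edgeR adjusted p = 0.959). Hist1h4m, with 38, 35, 26 and 56 counts across PBS 1, DKK1 1, PBS 2 and DKK1 2, was higher with DKK1 in the second pair alone. Treatments did not overlap for 12 of the 43 tested members, beside 16.2% of all genes tested.

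Summed by type, the log2 ratios had opposite signs in the pairs for every type, though that of H4 was near 0 in cells 1. On the log2 scale, DKK1 over PBS was 0.04 in cells 1 and -0.20 in cells 2 for H1. For H2A the values were -0.12 and 0.04, and for H2B 0.05 and -0.21. H3 had the widest split, 0.32 and -0.62, on summed counts of 107 to 350 a library. H4 gave -0.01 and 0.33, with 342 counts in both libraries of cells 1. Single members weighed on some of these ratios in cells 1. H2A had 1161 counts with PBS and 1075 with DKK1, while Hist2h2aa1 alone went from 134 to 0. The sign of H2A in cells 1 thus rested on Hist2h2aa1. H3 had 278 and 350 counts, while Hist2h3c1 alone went from 20 to 86.

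**Figure D2:**
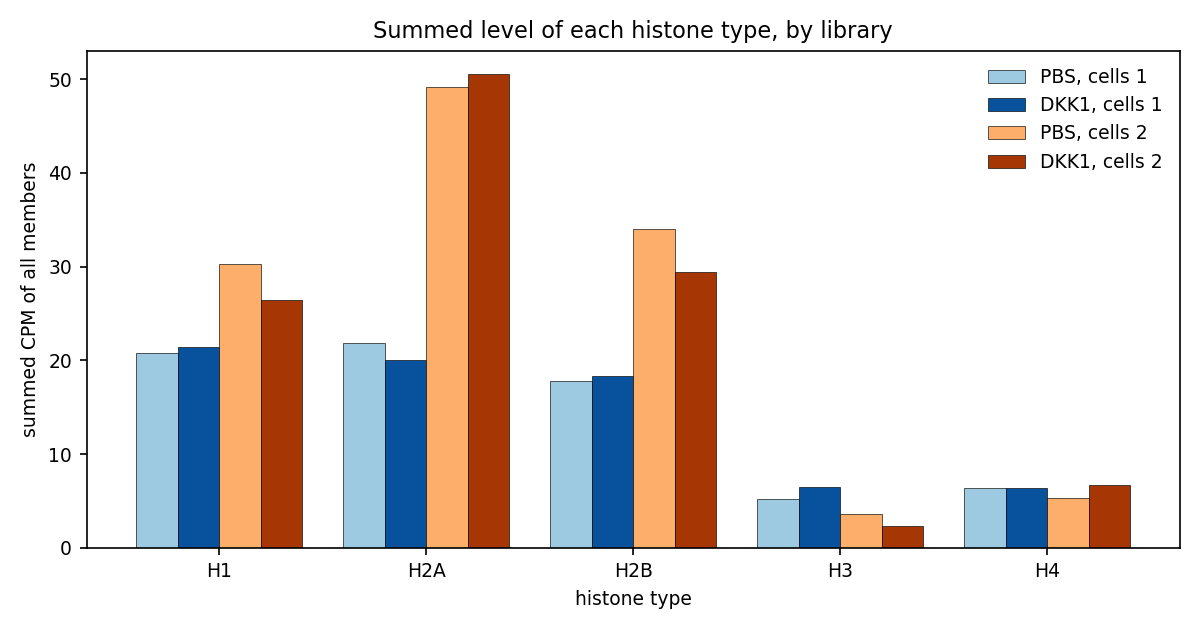
Summed CPM of all members of each histone type (x axis) in each of the 4 libraries (bars), from PBS and DKK1 in cells 1 to PBS and DKK1 in cells 2. H2A is highest in cells 2, at 49.2 and 50.5 CPM, and H3 is lowest in every library except DKK1 1, where H4 is at 6.39 and H3 at 6.54 CPM.

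**Figure D3:**
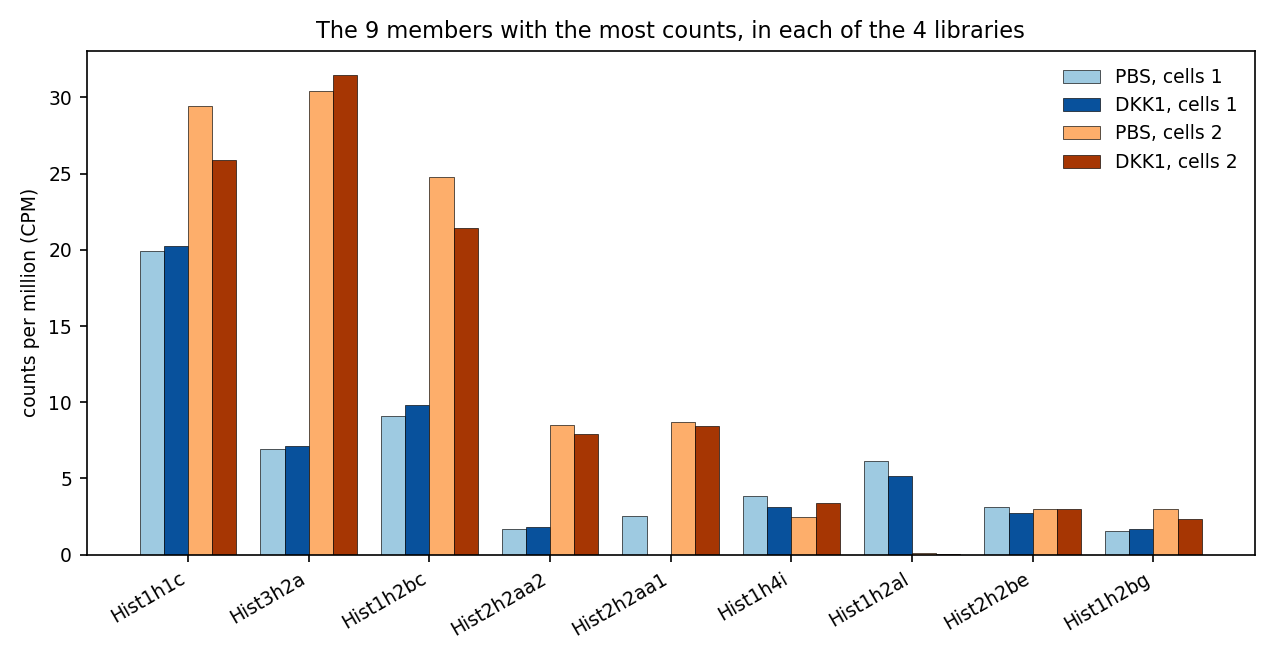
CPM of the 9 members with the most counts (x axis) in each of the 4 libraries (bars), from PBS and DKK1 in cells 1 to PBS and DKK1 in cells 2. Bars of the same preparation lie close together except for Hist2h2aa1, which had 0 counts in DKK1 1, while Hist3h2a, Hist1h2bc and the Hist2h2aa genes stand higher in cells 2 and Hist1h2al in cells 1.

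The second comparison was between the preparations, cells 2 against 1, in the same fit. It compares 2 preparations, each present in both treatments, so the mouse, the preparation and any handling that went with them cannot be told apart. Each preparation gave 1 library per treatment. The p-values thus weigh the difference against how well these libraries agree, and not against a spread among preparations or mice. Of the 43 tested members 8 were called, 5 higher and 3 lower in cells 2, beside 33.9% of all genes tested (17.9% higher and 15.9% lower). How this share compares with the background varied with the filter: with a minimum of 1 CPM in 2 libraries, 7 of 11 members and 6092 of 14018 genes were called. Either filter lets a gene pass through the libraries of 1 preparation alone, so the shares are partly set by the choice. Hist1h2al and Hist1h3c passed the 1 CPM filter through cells 1 only. The difference in share was not tested. The libraries of the preparations did not overlap for 25 of the 43 members, beside 69% of all genes: 8 lay higher in cells 2 (33.7% of all genes) and 17 lower (35.3%). The 5 higher members were all among the 9 with the most counts. Those 9 were chosen on these same libraries, and Hist2h2aa1 and Hist2h2aa2 reached a mean of 2 CPM through cells 2. The overlap is thus partly set by the choice.

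Hist3h2a had the smallest p of the members: its levels were 6.95 and 7.15 CPM in the libraries of cells 1 and 30.4 and 31.5 CPM in those of cells 2. The 2 pairs of values were far apart, and the log2 difference was 2.30 ± 0.12 (SE, edgeR adjusted p = 7.92e-05). Hist3h2a (chr11:58954685-58956830, plus strand) shares exon bases with Trim17 and with Gm44313, an antisense model annotated as a miRNA, which had 90, 71, 301 and 375 counts across PBS 1, DKK1 1, PBS 2 and DKK1 2. Without strand information the reads of the overlap cannot be told apart.

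Hist1h2bc (H2B, chr13:23684199-23692908, plus strand) had 9.11 and 9.81 CPM in cells 1 and 24.8 and 21.4 CPM in cells 2, a log2 difference of 1.45 ± 0.14 (SE, edgeR adjusted p = 0.000845). Hist1h1c (chr13:23738808-23740367, plus strand) had 19.9 and 20.3 CPM in cells 1 and 29.4 and 25.9 CPM in cells 2. Its log2 difference of 0.63 ± 0.11 (SE, edgeR adjusted p = 0.00864) was the smallest of those called. No other member matched Hist1h1c by the near-copy rule, so its counts are among the better assigned.

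The H2A genes Hist2h2aa1 (chr3:96245497-96246082, plus strand) and Hist2h2aa2 (chr3:96239749-96240276, minus strand) were called higher and Hist1h2al (chr13:51202727-51203065, minus strand) lower in cells 2. Hist1h2al is annotated as a processed pseudogene and lies outside the Hist1 cluster. Its 339 bases align with a stretch of both Hist2h2aa transcripts, of 586 and 528 bases, and match them at 337 positions, with the substitutions T120C and G216T, in which the base of the Hist2h2aa genes comes first and positions count from 1 at the 5′ end of the Hist1h2al transcript. The windows around the 2 differences are shown with the differing base in capitals, since within the shared stretch reads that cover neither of them fit all 3 models.

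Hist2h2aa1 and Hist2h2aa2 at position 120: ggagcgtgtgggTgccggcgcgccg

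Hist1h2al at position 120: ggagcgtgtgggCgccggcgcgccg

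Hist2h2aa1 and Hist2h2aa2 at position 216: caacaagaagacGcgcatcatcccg

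Hist1h2al at position 216: caacaagaagacTcgcatcatcccg

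Hist1h2al had 327 and 275 counts in cells 1 and 5 and 2 in cells 2, a log2 difference of -5.91 ± 0.49 (SE, edgeR adjusted p = 0.000309). Hist2h2aa2 had 90 and 98 against 351 and 363 counts, a log2 difference of 2.39 ± 0.22 (SE, edgeR adjusted p = 0.000788). The models thus went opposite ways while sharing a stretch that differs at 2 bases. Hist2h2aa1 had 134 counts with PBS and 0 with DKK1 in cells 1, and 359 and 388 in cells 2. Gm20634, a model that shares exon bases with Hist2h2aa1 and with Hist2h3c1 on the same strand, was at 0 in that same DKK1 library, with 49, 145 and 135 counts in PBS 1, PBS 2 and DKK1 2. Hist2h3c1 was at its highest in that library, with 86 counts. The call of Hist2h2aa1 (log2 3.00 ± 0.69 SE, edgeR adjusted p = 0.0215) was lost with the legacy form of the quasi-likelihood fit (adjusted p = 0.0953), without the filter (0.132), with DESeq2 (0.136) and with limma-voom (0.133). The call was also lost without PBS 2 or without DKK1 2, in fits with no treatment term that left a single library of cells 2.

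Summed, the 3 models had 551 and 373 counts in cells 1 and 715 and 753 in cells 2. The sum was higher in cells 2 by 1.15 ± 0.16 on the log2 scale (SE, edgeR adjusted p = 0.00397), less than for either Hist2h2aa gene alone. With the 6 models that overlap their exons added, the sum was 1090, 825, 1703 and 1781 counts across PBS 1, DKK1 1, PBS 2 and DKK1 2, and the log2 difference 1.34 ± 0.12 (SE, edgeR adjusted p = 0.000555). The antisense model over Hist1h2al, Gm44341, followed it with 78, 89, 2 and 6 counts. These sums were chosen after the counts of the single models were seen.

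**Figure D4:**
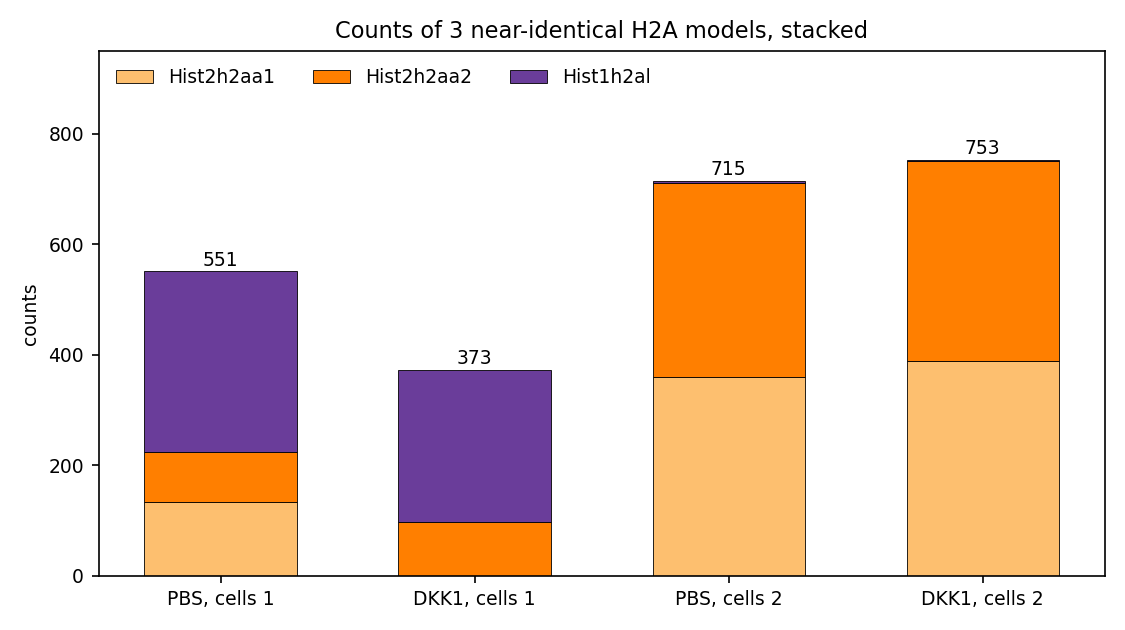
Counts of Hist2h2aa1, Hist2h2aa2 and Hist1h2al in each library (stacked bars, x axis), with their sum above each bar. Hist1h2al holds most of the sum in both libraries of cells 1 and almost none in cells 2, and the sums run from 373 to 753 counts.

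The other 2 members called lower were low in count. Hist1h2ag (H2A) had 30 and 48 counts in cells 1 and 0 and 2 in cells 2 (edgeR adjusted p = 0.0151). As a ratio of CPM over both libraries it was 31.8-fold lower in cells 2, with a binomial 95% counting interval of 8.52 to 267.6. That interval treats the counts as whole reads, though they are estimates, so it is approximate. Its call was lost without DKK1 1, PBS 2 or DKK1 2, in fits with no treatment term that each left a single library of 1 preparation. Hist1h3c (H3) had 59 and 54 counts in cells 1 and 5 and 12 in cells 2, a log2 difference of -2.26 ± 0.64 (SE) at an edgeR adjusted p of 0.0430. That call was lost with the legacy quasi-likelihood fit (adjusted p = 0.0681), with limma-voom (0.0783), without the filter (0.117), with DESeq2 (0.122) and in all 4 fits that left out 1 library (0.0730 to 0.144). Hist2h3c1, with 20 and 86 counts against 9 and 6, was not called (log2 -2.37, edgeR adjusted p = 0.0660).

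No H4 gene was called between the preparations, and the 7 tested lay between -0.48 and 1.21 on the log2 scale. Hist1h4i, the leading H4 gene, was at -0.06 (95% interval -0.78 to 0.66). Hist2h2be, with 3.12 and 2.75 CPM in cells 1 and 2.99 and 3.00 CPM in cells 2, lay close together in all 4 libraries (log2 0.20, 95% interval -0.43 to 0.83). Hist1h2bg had 1.56 and 1.70 CPM against 2.96 and 2.33 CPM and was not called (log2 0.86, edgeR adjusted p = 0.0855).

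**Figure D5:**
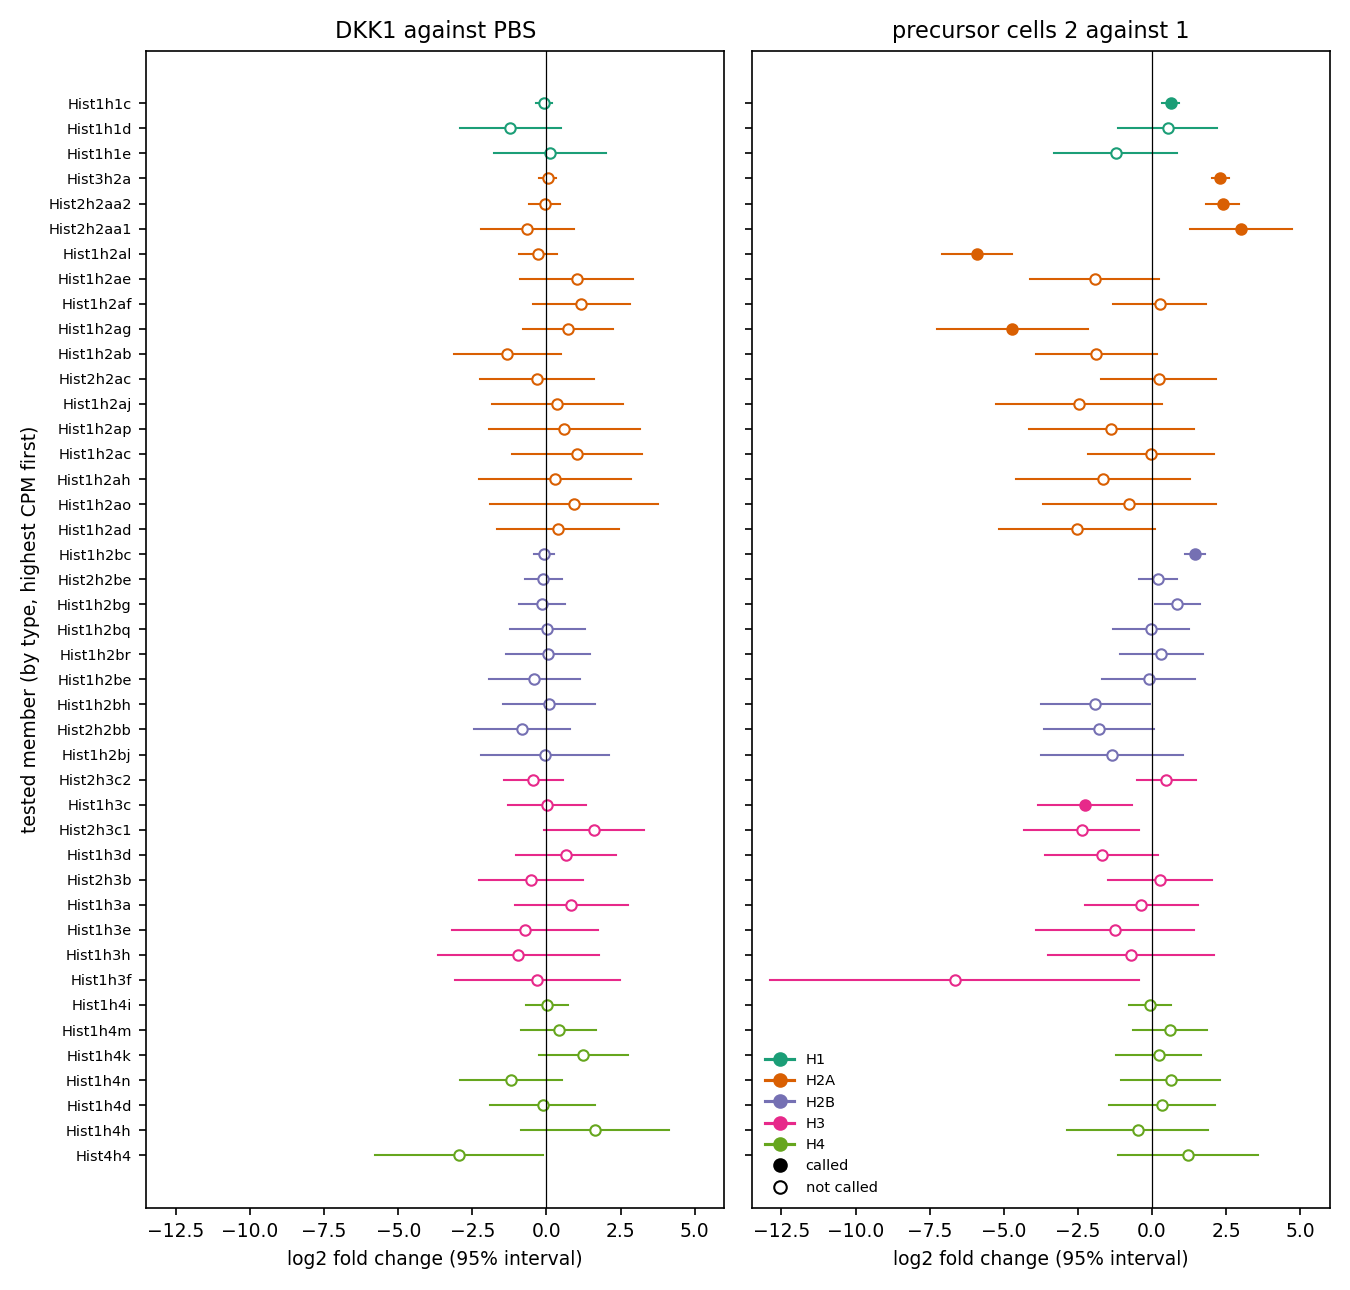
Log2 fold change (points) with 95% interval (lines) of the 43 tested members for DKK1 against PBS (left) and precursor cells 2 against 1 (right), ordered by type and then by CPM. Filled points passed an adjusted p of 0.05: 0 on the left and 8 on the right. On the right the widest interval belongs to Hist1h3f, which had 16, 13, 0 and 0 counts.

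The 9 leading members summed to 54.8 and 51.7 CPM in cells 1 and 110 and 104 CPM in cells 2. The other 60 members summed to 17.2 and 21.0 CPM in cells 1 and 12.0 and 11.6 CPM in cells 2. The 9 were chosen on their mean over these same libraries, which Hist2h2aa1, Hist2h2aa2 and Hist1h2bg reached through cells 2 and Hist1h2al through cells 1, so the sums describe this choice. With 3 leading members the other 66 summed to 36.0 and 35.5 CPM in cells 1 and 37.8 and 36.7 CPM in cells 2, and with 1 the other 68 summed to 52.1 and 52.5 CPM against 93.0 and 89.6 CPM. By type, summed H3 genes had 5.22 and 6.54 CPM in cells 1 and 3.57 and 2.33 CPM in cells 2. The sums of H2A were 21.8 and 20.1 CPM in cells 1 and 49.2 and 50.5 CPM in cells 2. No test was made of these sums.

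Of 31 S phase genes, for DNA replication, nucleotide supply and control of the cell cycle, 26 were called lower in cells 2 and 0 higher, beside 15.9% and 17.9% of all genes, with a median log2 difference of -0.82 beside -0.00 for all genes. Their summed level was 2396 and 2462 CPM in cells 1 and 1289 and 1284 CPM in cells 2. Those of smallest p were Mcm5, a helicase subunit (log2 -1.24), Rrm1, a subunit of ribonucleotide reductase (-1.21), Lig1, a DNA ligase (-1.26), and the proliferation marker Mki67 (-0.82). With DKK1 0 of the 31 were called. The smallest p belonged to Cdk2, which had 26.2 and 35.1 CPM with PBS and DKK1 in cells 1 and 27.6 and 36.6 CPM in cells 2 (log2 0.41, edgeR adjusted p = 0.792), and the next to Mki67 (log2 0.10, edgeR adjusted p = 0.959).

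Of 19 genes for the transcription and 3′ processing of histone messenger RNA, 5 were called higher and 3 lower in cells 2, beside 17.9% and 15.9% of all genes, and the median log2 difference was 0.04. Those of smallest p were all higher: the uridylyl transferases Zcchc6 (log2 0.54) and Zcchc11 (0.77), the H4 gene transcription factor Hinfp (0.76) and the Slbp-binding protein Mif4gd (0.64). Slbp itself had 40.2 and 41.8 CPM in cells 1 and 32.3 and 32.7 CPM in cells 2 and was not called (edgeR adjusted p = 0.206). With DKK1 0 of the 19 were called, and the 2 of smallest p were Mif4gd (log2 0.17) and Lsm10, a U7 snRNP subunit (0.18).

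Of 19 chaperones and deposition factors 13 were called lower and 1 higher in cells 2, beside 15.9% and 17.9% of all genes, with a median log2 difference of -0.47. Daxx, a chaperone for the variant H3.3, was higher (log2 2.34), and Nap1l1 (-1.07), Rbbp7 (-0.64) and Chaf1a, the large CAF-1 subunit (-0.91), were lower. With DKK1 0 of the 19 were called, and the smallest p values were those of the importin Ipo4 (log2 0.24) and the centromeric chaperone Hjurp (-0.23).

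Replication-independent histone genes ranged widely in level, with Hist1h1c, at 15.3 CPM per kb, above 8 of the 15 listed and below 7. H3f3b, which encodes H3.3, was the highest at 194 CPM per kb of exon as a mean over the 4 libraries, and H2afy2, a macroH2A gene, the lowest of those counted at 0.578 CPM per kb. Of the 15 listed 4 had no count and 11 were tested, with 2 called higher in cells 2 (H3f3b, log2 0.60, and H1f0, the linker variant of non-dividing cells, 0.93) and 5 lower, beside 17.9% and 15.9% of all genes. H2afz (log2 -0.59) and H3f3a (-0.48), the second H3.3 gene, were among the lower. H3f3b and H3f3a thus went opposite ways. With DKK1 0 of the 11 were called, and the smallest p values were those of Cenpa (log2 0.27) and H1f0 (-0.12).

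Markers of cell types moved with the preparations as well, and their part in the histone differences was not tested. The counts called in each list stand beside 17.9% of all genes tested called higher and 15.9% called lower in cells 2. Of 10 B cell markers, led by Cd79a and Cd79b, 10 were called lower in cells 2, and their summed level was 148 to 227 CPM in cells 1 and 27.7 to 28.0 CPM in cells 2. Of 11 neutrophil and granulocyte precursor markers, led by Ngp and S100a9, 11 were called higher, with sums of 5190 to 5230 CPM against 8608 to 8862 CPM. Of 7 tested erythroid markers 5 were called higher (sums of 83.2 to 116 CPM against 122 to 157 CPM). The monocyte, macrophage and osteoclast precursor markers, led by Lyz2 and Csf1r, were abundant in every library. Their sums were 33994 to 34217 CPM in cells 1 and 23939 to 24177 CPM in cells 2, with 5 called higher and 1 lower. Most of each sum was Lyz2, at 26428 and 26267 CPM in cells 1 and 13419 and 13876 CPM in cells 2. Of the 11 entries tested, 10 had a positive log2 difference and 1 a negative one, and the median was 0.37. Of 7 tested genes in each of the other lists, 1 T and NK cell marker and 4 mast cell and basophil markers were called higher, and 2 stromal and osteoblast markers higher and 1 lower. Tpsb2, a mast cell marker, had no count, and no other marker matched was at 0 in every library. No list of markers held a gene called with DKK1.

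In the authors' deposited tables, which compare 1 DKK1 library with 1 PBS library, 9 members were listed for cells 1 and 8 for cells 2, and 0 were called. The smallest FDR in the authors' deposited tables was that of Hist1h2bc in cells 2, at 0.0819 with a log2 ratio of -0.21. For Hist1h4i the authors' deposited tables gave log2 ratios of -0.29 in cells 1 and 0.45 in cells 2.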

How the data were processed

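Gene counts were deposited by the authors as whole numbers for 4 libraries. The submitters' processing notes name fastp, HISAT2 and the build mm10; which program and annotation gave the counts is not given in the sources used here. Tables of each pair hold log2 ratios, p-value and FDR columns and FPKM values, per the file headers. For genes with 1 transcript and under 300 counts, the deposited count exceeded the value implied by the authors' FPKM and the transcript length by 0 to 1 in 96.3% to 96.9% (tolerance 0.02), so counts are rounded-up estimates from coverage rather than whole reads.

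Counts were fitted with edgeR 4.0.16 in R 4.3.3 (TMM scaling, filterByExpr with a minimum count of 10, legacy off) with the precursor cells as a block and treatment as the other term (residual degrees of freedom: 1). Two-sided p-values were adjusted by Benjamini-Hochberg over 17462 genes, with a threshold of 0.05. Legacy and current forms of the quasi-likelihood fit were both run, and the current form was kept with the counts of calls of both in view, because earlier work on these data used it. Libraries of the same number were treated as pairs because the titles number the precursor cells and the authors' tables compare them so; the labels do not tie a number to a mouse. Their deviations from the group means correlated at 0.726. Log2 CPM within pairs used a prior count of 2. For DKK1 against PBS the spread is that of 2 preparations. Between preparations it is that of the PBS and DKK1 libraries of the same cells, which are not replicates of a preparation.

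Members, gene lists and rules were chosen with earlier results of these data known. Named members were the 2 of highest mean CPM of each type, those with a mean of at least 2 CPM, those called, and the 4 of smallest p in each comparison. In pathway lists the rule took up to 4 called genes of smallest p per comparison, or 2 where none was called. In marker lists it took the 2 of highest mean CPM. Slbp, H2afy2, Hist2h2bb and Hist1h3f were named after their values were seen. Positions, exon lengths and transcripts come from GENCODE M21 and near copies from BLAST 2.17.0. Floors are 3 counts a library, and intervals from counts cover counting error only and treat the estimated counts as whole reads. Alternatives were RLE and upper-quartile scaling, other filters, DESeq2 1.42.0, limma-voom 3.58.1, the legacy fit, and sums of near copies. Others dropped the replicate block (DKK1 against PBS) or the treatment term (between preparations), with all libraries or with each library left out.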

Additional observations from a re-analysis of the deposited data

Results flagged for a closer look

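The sums of all 5 types and 8 named members had log2 ratios of opposite sign with DKK1 in the 2 pairs. For H4 the ratio was near 0 in cells 1, with 342 counts in either treatment. The sign of H2A in cells 1 rested on Hist2h2aa1, which had 134 counts with PBS and 0 with DKK1. Most of the rise of H3 in cells 1 was that of Hist2h3c1, from 20 to 86 counts. Each preparation has 1 pair, so these differences between pairs were not tested. Values are log2 DKK1 over PBS, first in precursor cells 1 and then in precursor cells 2. The sums were 0.042 and -0.20 for H1, -0.12 and 0.04 for H2A, 0.049 and -0.21 for H2B, 0.32 and -0.62 for H3, and -0.0082 and 0.33 for H4. Hist1h1c had 0.025 and -0.19, Hist1h2bc 0.11 and -0.22, Hist1h2bg 0.12 and -0.35, and Hist2h2aa2 0.11 and -0.12. Hist1h3c had -0.13 and 0.90, Hist1h4i -0.29 and 0.45, Hist1h4m -0.12 and 0.90, and Hist2h3c1 1.98 and -0.61. Of the 43 tested members 24 had the same sign in both pairs, a share close to the 51.7% of all genes tested.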

How the results depend on the processing

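No member was called with DKK1 under any setting run. The count of all genes called with DKK1, 9 in the fit reported, was 5 with upper-quartile scaling, 0 without a filter, 15 with a stricter filter, 46 with DESeq2, 2 with limma-voom, 3 with the legacy quasi-likelihood and 0 in each fit that left out 1 library; 596 genes had an unadjusted p under 0.05 with the legacy fit and 911 without a filter. Without the replicate block that ties libraries of the same number, 0 genes were called with DKK1 (116 at an unadjusted p under 0.05). Between preparations, the matching fit dropped the treatment term instead and kept the preparations, and 8 members and 6111 genes were called. Neither change altered the call of a member. Between preparations 5913 genes were called, 3509 without a filter and 3194 to 4574 with 1 library left out; 5 to 8 members were called with 1 library left out, 5 without PBS 2 (3346 genes in all) and 5 without DKK1 2 (3194), and 6 with the legacy fit, DESeq2 or no filter. For the histone transcription and 3′ processing list 3 to 6 genes were called with 1 library left out, fewest without DKK1 2 (3) and without PBS 2 (5).

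Leaving out libraries changed the sign of uncalled values. For DKK1 these fits have no block, so an unbalanced set also carries the difference between preparations. Between preparations they have no treatment term, so an unbalanced set also carries the difference between treatments. With DKK1, log2 changes ran from -0.43 to 0.31 for Hist1h1c, -2.55 to 7.41 for Hist1h2ag, -5.94 to 4.22 for Hist1h2al, -0.91 to 0.89 for Hist1h2bc, -0.64 to 0.47 for Hist1h2bg, -1.12 to 2.24 for Hist1h3c, -0.29 to 0.45 for Hist1h4i, -0.12 to 0.93 for Hist1h4m, -11.2 to 0.91 for Hist2h2aa1, -1.61 to 1.66 for Hist2h2aa2, -0.23 to 0.053 for Hist2h2be, -1.09 to 2.34 for Hist2h3c1 and -1.52 to 1.61 for Hist3h2a. Between preparations they ran from -0.17 to 1.26 for Hist1h1d, -0.33 to 0.14 for Hist1h4i, -0.82 to 0.82 for Hist1h4k and -0.31 to 6.58 for Hist4h4. Most members have few counts: the median SE of the log2 change with DKK1 was 0.69, against 0.11 for Hist1h1c, the member with the most counts.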

Other observations

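Some gene models outside the histone rule shared exon bases with the Hist2h2aa genes. Gm20632, antisense to Hist2h2aa2, had 190 and 155 counts in cells 1 and 418 and 451 in cells 2. Gm20633, antisense to Hist2h2aa1, had 218 and 205 counts in cells 1 and 419 and 432 in cells 2. Gm42743, a lincRNA that shares exon bases with the H2B gene Hist2h2bb on the same strand, had 98 and 56 counts in cells 1 and 0 in both libraries of cells 2. Hist2h2bb itself had 37 and 22 counts in cells 1 and 8 and 4 in cells 2 and was not called (log2 -1.79, edgeR adjusted p = 0.123).

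By name, the 56 Hist1 members on chromosome 13 summed to 54.5 and 57.0 CPM in cells 1 and 68.1 and 62.7 CPM in cells 2. Without Hist1h2al, which lies outside the cluster, the other 55 summed to 48.3 and 51.9 CPM in cells 1 and 68.0 and 62.6 CPM in cells 2. The 10 members of Hist2 on chromosome 3 summed to 10.2 and 8.59 CPM against 23.2 and 21.0 CPM, and the 2 members of Hist3 on chromosome 11 to 7.10 and 7.15 CPM against 30.7 and 31.6 CPM.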
